A study of Mus musculus with 119 samples.

Results

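Arginine is the substrate of nitric oxide synthesis and a source of polyamines, and 4 genes of its uptake, use and recycling were followed here across bone marrow-derived macrophages (BMDMs) stimulated with lipopolysaccharide (LPS). The genes were *Slc7a2*, *Ass1*, *Nos2* and *Odc1*, taken by symbol from a table of 18098 genes measured in every mRNA library of the series. In the GRCm38.p6 annotation (the assembly also called mm10) *Slc7a2* lies at chr8:40862341-40922070, *Ass1* at chr2:31470270-31520670, *Nos2* at chr11:78920787-78960226 and *Odc1* at chr12:17544808-17551502. All 4 are annotated as protein-coding. A gene entered the tests where its linear value reached 10 (3.32 on the log2 scale) in enough libraries, and all 4 did.

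Arginine enters macrophages through cationic amino acid transporters, of which CAT2, the product of *Slc7a2*, is the form known to be induced by inflammatory stimuli. Inducible nitric oxide synthase, encoded by *Nos2*, turns arginine into citrulline and nitric oxide, a microbicidal gas, and argininosuccinate synthase, encoded by *Ass1*, catalyses the first step by which citrulline is made back into arginine. Arginine can also be made into ornithine, which ornithine decarboxylase, encoded by *Odc1*, converts to putrescine, the first polyamine. LPS signals through TLR4 to NF-kB and to MAP kinases. TPL-2, encoded by *Map3k8*, is the kinase that links TLR4 to MKK1/2 and ERK1/2, and it is held by NF-kB1 p105 until IKK phosphorylates p105.

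The question was how ERK signalling shapes the response of BMDMs to LPS, given at 100 ng/ml. Every library came from mice of the strain label C57BL/6(NIMR), and marrow cells had been grown for 7 days in L-cell conditioned medium. Wild-type (WT) cells were sampled at 0, 0.5, 1 and 2 h of LPS with 6, 6, 6 and 4 libraries. Map3k8[D270A] cells, whose TPL-2 is kinase-inactive, had 6 libraries at each of the same times, and Elk1-/-Elk4-/- cells, which lack 2 of the ternary complex factors that ERK phosphorylates, had 4 at each. Nfkb1[SS/AA] cells, in which the IKK sites of p105 are mutated, had 6 libraries at each of 0, 0.5 and 1 h. WT cells were also given 0.1 uM PD0325901, an MKK1/2 inhibitor, for 10 min before LPS, and 6 libraries were made after 0.5 h and 6 after 1 h. PD0325901 without LPS was sampled at 10, 40 and 70 min (3 libraries each), and 3 libraries had DMSO alone. The RSK inhibitor RSKi47 at 2 uM was likewise given 10 min before LPS and sampled at 0, 0.5, 1 and 2 h (4, 3, 4 and 4 libraries). Both inhibitors were used on WT cells, and no library is labelled as a vehicle control for RSKi47.

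The labels sort the libraries into 5 experiments, and the WT time course belongs to that of Map3k8[D270A]. In every other comparison with WT, the arm and the experiment therefore cannot be told apart, and 23.6% of genes differed between DMSO-treated WT cells and WT cells at 0 h with limma at an adjusted p under 0.05. Values are the deposited ones on a log2 scale, and the depth of the libraries is unknown from the table. Variation was smaller than counting noise allows in 92.5% of genes at levels of 4 to 5. The values of low genes may therefore have been drawn together, though how they were treated is not described. Differences that start from low levels, as those of *Nos2* do, may then be understated. *Nos2* in WT at 0 h, at 3.09 to 3.65, lay below the levels checked. Summed macrophage markers (8 genes, all tested) were at 18.35 to 19.23 in all libraries. In Elk1-/-Elk4-/- cells the sum lay below WT without overlap at every time (18.35 to 18.44 against 18.61 to 18.80 at 0 h, and 18.64 to 18.71 against 18.87 to 19.0 at 2 h), with 2 of the 8 markers higher and 2 or 3 lower. In Map3k8[D270A] cells 2 were lower than in WT at 1 h and 3 at 2 h, and 0 were higher. Summed neutrophil markers (8 genes, 5 of them tested) were at 10.04 to 11.04 in Elk1-/-Elk4-/- libraries, at 6.24 to 7.74 in WT, at 7.29 to 8.81 with PD0325901 and at 7.08 to 8.59 with RSKi47, with *Ly6g* and *Elane* near the floor throughout. All 5 tested were higher than WT in Elk1-/-Elk4-/- cells at every time, with PD0325901 and LPS at 0.5 and 1 h, and in DMSO-treated cells. With RSKi47 4 or 5 were higher at each time, in Nfkb1[SS/AA] cells 3 at 1 h, and in Map3k8[D270A] cells 0 at every time. Summed fibroblast markers (5 genes, 2 of them tested) were at 5.06 to 9.42 with RSKi47 and at 3.97 to 4.93 in WT, and both tested, *Col1a1* and *Col1a2*, were higher with RSKi47 at all 4 times (in Elk1-/-Elk4-/- cells, at 4.21 to 4.87 in sum, the one tested was higher at 0.5, 1 and 2 h), while *Cd79b*, the one tested marker of T and B cells, was lower there and higher in Elk1-/-Elk4-/- cells and with PD0325901 and LPS. Summed dendritic cell markers (4 genes, 2 of them tested) rose with LPS, in WT from 4.35 to 4.48 at 0 h to 5.79 to 6.07 at 2 h, where both tested were higher. Against WT, 1 of these 2 was higher in Elk1-/-Elk4-/- and Nfkb1[SS/AA] cells at every time, with PD0325901 and LPS, and with RSKi47 at 0 and 0.5 h, and 1 was lower in Map3k8[D270A] and Elk1-/-Elk4-/- cells at 2 h, in Nfkb1[SS/AA] cells at 1 h and with RSKi47 at 1 and 2 h. *Dcn*, *Pdgfra* and *Cd3e* were near the floor in all libraries. The part of cell makeup in the results was not tested. In bulk RNA, fewer cells that hold a transcript and less of it in each cell cannot be told apart. *Elk1* was at 6.17 to 6.59 in Elk1-/-Elk4-/- libraries against 9.04 to 9.49 in WT, and *Elk4* at 5.51 to 5.88 against 7.57 to 8.49. The alleles of *Map3k8* and *Nfkb1* are point mutations, which the mRNA level does not check.

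One of the genes has a near-copy that bears on every value given for it. The coding sequence of *Ass1* aligned over 1236 bases with *Gm5424*, a transcribed pseudogene at chr10:62071022-62072571, with 99.5% identity, 6 mismatches and a longest identical run of 398 bases. Of the 1187 windows of 50 bases in the *Ass1* coding sequence, 907 (76.4%) were identical in *Gm5424*. Coding bases 301 to 420 of *Ass1* and the aligned bases of *Gm5424*, read from the GRCm38.p6 transcripts, are printed to show how few positions separate the pair, with the single mismatch in capitals:
Ass1: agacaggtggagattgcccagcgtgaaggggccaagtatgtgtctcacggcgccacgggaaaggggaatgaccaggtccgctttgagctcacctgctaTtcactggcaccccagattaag
Gm5424: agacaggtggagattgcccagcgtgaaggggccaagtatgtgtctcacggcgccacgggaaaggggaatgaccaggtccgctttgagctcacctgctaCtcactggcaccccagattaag
The most similar gene to *Odc1* was *Gm15645*, with 93.4% identity over 1303 bases, and it was listed at only 0.75 to 1.24. For *Nos2* and *Slc7a2* the closest match had 70.2% identity or less.

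LPS raised 3 of the 4 genes in WT BMDMs, and each had its own timing. *Odc1* was already higher at 0.5 h, *Slc7a2* joined it at 1 h, and *Nos2* rose at 2 h. Of the 4 genes tested, 1, 2 and 3 were called higher at 0.5, 1 and 2 h against 0 h and none was called lower, where 11.6%, 46.8% and 71.5% of all genes tested were called in either direction. The counts in the other arms were 0, 3 and 3 in Map3k8[D270A] cells (all genes 5.08%, 41.9% and 69.5%) and 1, 1 and 4 in Elk1-/-Elk4-/- cells (4.96%, 33.3% and 67.2%). In Nfkb1[SS/AA] cells 1 and 1 were called at 0.5 and 1 h (14.6% and 44.4%), and with PD0325901 0 and 2 (14.9% and 43.6%, against inhibitor alone for the matching 40 and 70 min). With RSKi47 the counts were 0, 2 and 3 at 0.5, 1 and 2 h (5.10%, 29.0% and 62.2%). All of these calls were increases.

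**Figure D1:**
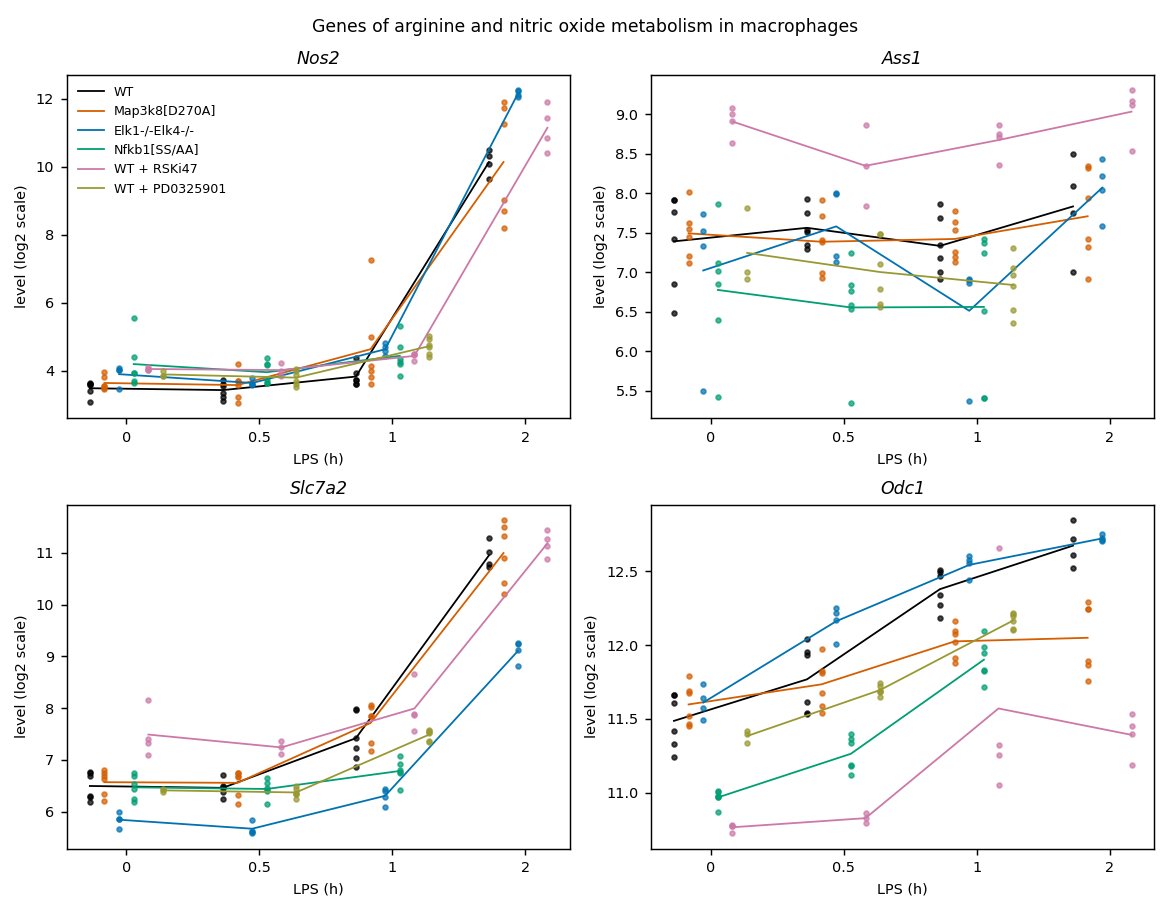
Log2 normalised values of the 4 genes (y axis, 1 panel per gene) against hours of LPS (x axis), with 1 point per library, lines through the group means and a colour per arm; PD0325901 at 0 h stands for 10 min of inhibitor. *Nos2* stays below 8 until 2 h, *Slc7a2* at 2 h is lower in Elk1-/-Elk4-/- than in the other 3 arms sampled, and *Odc1* starts low in RSKi47 and Nfkb1[SS/AA].

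*Slc7a2*, the arginine transporter gene, rose steeply with LPS. WT libraries were at 6.18, 6.70, 6.77, 6.30, 6.29 and 6.75 at 0 h. At 1 h they were at 7.99, 7.22, 7.97, 6.87, 7.04 and 7.43, and at 2 h at 11.02, 10.72, 11.29 and 10.78. No library at 1 or 2 h overlapped those at 0 h. The increase was 0.92 at 1 h (SE 0.18, limma adjusted p = 1.97e-05) and 4.46 at 2 h (SE 0.20, adjusted p = 7.09e-27), on the log2 scale used for every difference here.

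*Slc7a2* was lower in Elk1-/-Elk4-/- cells than in WT at all 4 times. At 0 h the Elk1-/-Elk4-/- libraries were at 5.87, 6.00, 5.85 and 5.66, all under the lowest WT library. After 2 h of LPS they had reached 9.24, 9.26, 8.82 and 9.12, again below every WT library of that time. The difference from WT was -0.65 at 0 h, -0.79 at 0.5 h, -1.11 at 1 h and -1.84 at 2 h (SE 0.22 at 2 h), with adjusted p of 0.00574, 0.00124, 7.4e-06 and 1.02e-09, and the groups did not overlap at any of these times. The rise from 0 to 2 h, 3.27 in these cells, was 1.19 smaller than in WT (difference of the responses -1.19, SE 0.30, adjusted p = 0.0032). At 1 h their own rise was 0.46 with an adjusted p of 0.107. Within Elk1-/-Elk4-/- cells alone that rise had an adjusted p of 0.00408.

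With RSKi47 *Slc7a2* was higher than in WT before LPS. Libraries with RSKi47 at 0 h were at 7.09, 7.40, 7.32 and 8.15, above every WT library at 0 h. The difference from WT was 0.99 at 0 h (SE 0.18, adjusted p = 1.79e-06) and 0.78 at 0.5 h (SE 0.20, adjusted p = 0.00058). At 2 h, where RSKi47 libraries stood at 10.89, 11.28, 11.13 and 11.45, the groups overlapped and the difference of 0.23 did not pass (adjusted p = 0.323). The rise over 2 h was therefore smaller than in WT, by 0.76 (SE 0.27, adjusted p = 0.0298), but leaving out any of 5 libraries, WT replicate 4 at 0 h, WT replicates 4 and 6 at 2 h, RSKi47 replicate 4 at 0 h or RSKi47 replicate 1 at 2 h, moved that p to between 0.0516 and 0.155. The difference at 1 h, 0.57 (adjusted p = 0.00499), fell to 0.35 (adjusted p = 0.117) without RSKi47 replicate 4, and the rise of 0.50 within RSKi47 at 1 h (adjusted p = 0.0421) was lost without any of replicates 1, 2 and 3 at 0 h or replicate 4 at 1 h (0.28 to 0.47, adjusted p 0.0933 to 0.341). RSKi47 replicate 4 was highest both in *Slc7a2* and in summed fibroblast markers, which were at 9.42, 7.32 and 6.5 in it at 0, 1 and 2 h and at 5.06 to 5.99 in the other replicates. Without this replicate at any time the difference in *Slc7a2* was 0.77 at 0 h (adjusted p = 0.000223) and 0.78 at 0.5 h (adjusted p = 0.0002), and the smaller rise over 2 h was -0.63 (adjusted p = 0.0954).

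In Nfkb1[SS/AA] cells *Slc7a2* rose little by 1 h. Their libraries at 1 h were at 7.08, 6.41, 6.78, 6.80, 6.74 and 6.92, and only replicates 1 and 6 lay within the WT range. The difference from WT at 1 h was -0.63 (SE 0.16, adjusted p = 0.000746), while at 0 h it was -0.03. Their own rise of 0.32 did not pass as fitted (adjusted p = 0.103), and passed with the replicate number as a block (adjusted p = 0.00758) or without replicate 2 at 1 h (0.39, adjusted p = 0.0478). The smaller response than WT, -0.61, behaved alike, with an adjusted p of 0.102 as fitted, 0.00229 with the block, and 0.0399 without WT replicate 7 at 1 h. Numbers did not pair libraries between these arms (mean correlation of deviations -0.01), so the block is no pairing of WT with Nfkb1[SS/AA]. In Map3k8[D270A] cells *Slc7a2* rose by 1.14 at 1 h and 4.43 at 2 h, and no time gave a call against WT over all libraries. At 2 h its replicates 1 to 3 were at 11.51, 11.63 and 11.33 and replicates 4 to 6 at 10.90, 10.21 and 10.42. Against WT replicates 4 to 6 alone, replicates 1 to 3 were higher by 0.48 (adjusted p = 0.0369), though this split was recognised from the values. Against WT replicate 7 replicates 4 to 6 differed by -0.27, the opposite direction, and the gap between these values, 0.75, did not pass (adjusted p = 0.168). With PD0325901 it rose by 0.76 at 1 h over 70 min of inhibitor alone (SE 0.20, adjusted p = 0.000813). At those 70 min the libraries, at 6.71, 6.74 and 6.75, lay above the 3 at 10 min, at 6.45, 6.37 and 6.42, by 0.32 (adjusted p = 0.518 as fitted, 0.00329 with the spread of those 2 groups). With LPS it differed from WT by 0.07 at 1 h (adjusted p = 0.77).

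*Nos2*, the inducible nitric oxide synthase, rose most of the 4 genes. WT libraries lay between 3.09 and 3.65 at 0 h and between 3.61 and 4.37 at 1 h. At 2 h they stood at 10.51, 10.31, 10.10 and 9.66. The 2 h libraries were far above all earlier ones, with an increase of 6.65 (SE 0.45, adjusted p = 2.77e-19), whereas the difference at 1 h was 0.34 (adjusted p = 0.535). Same-numbered WT libraries were paired across times by their deviations, and in all 6 pairs *Nos2* was higher at 1 h than at 0 h, by 0.10 to 0.77, with an adjusted p of 0.534 with the pairs as a block. Both this p and that of 0.535 take their spread from all groups fitted together, not from these libraries alone. The SD of *Nos2* was 1.366 and 1.673 in Map3k8[D270A] at 1 and 2 h, and 0.215 and 0.288 in WT at 0 and 1 h. Increases at 2 h were 6.5 in Map3k8[D270A], 8.27 in Elk1-/-Elk4-/- and 7.10 with RSKi47, each with an adjusted p under 0.05. The 4 groups at 2 h headed the order of all 25 groups, with means of 12.17 in Elk1-/-Elk4-/-, 11.15 with RSKi47, 10.15 in Map3k8[D270A] and 10.14 in WT, and the next group, PD0325901 with LPS at 1 h, was at 4.73. The Elk1-/-Elk4-/- libraries were all above the RSKi47 ones, while RSKi47, Map3k8[D270A] and WT overlapped with their neighbours in that order.

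In Elk1-/-Elk4-/- cells *Nos2* at 2 h was at 12.23, 12.26, 12.06 and 12.12. Each was above the highest WT library, and the difference was 2.03 (SE 0.50, adjusted p = 0.000576). The difference of the responses, 1.61 (SE 0.67), had an adjusted p of 0.0909, which became 0.0303 in a fit over all libraries and 0.000106 with the spread estimated from those 2 arms. RSKi47 libraries at 2 h were at 10.84, 11.45, 11.91 and 10.42, the lowest of them within the WT range. Their difference from WT was 1.01 (SE 0.41, adjusted p = 0.0314) and was lost when any of WT replicates 6 and 7 or RSKi47 replicates 2 and 3 was left out (0.76 to 1.00, adjusted p 0.057 to 0.148). It was also lost with the replicate number as a block (0.97, adjusted p = 0.0583). RSKi47 libraries at 0 h already lay above every WT library, by 0.57 (adjusted p = 0.20 as fitted, 0.000999 with the spread of those 2 groups). The response to 2 h of LPS with RSKi47 differed from that of WT by 0.45 (SE 0.56, adjusted p = 0.636).

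Map3k8[D270A] cells had a mean *Nos2* level at 2 h that matched WT, with a difference of 0.00 (SE 0.45, adjusted p = 0.996), but their libraries fell into 2 groups. Replicates 1, 2 and 3 were at 11.92, 11.26 and 11.74, and replicates 4, 5 and 6 at 9.03, 8.21 and 8.71. The first 3 were above and the last 3 below every WT library. The labels name no batches within this experiment. WT replicates 4 to 6 and Map3k8[D270A] replicates 1 to 3 nevertheless differed from the other replicates of their arm in like ways across genes, with a correlation over all genes tested of 0.61, 0.66, 0.57 and 0.58 at 0, 0.5, 1 and 2 h (genes are not independent replicates). Among those libraries, *Nos2* at 2 h was 1.34 higher in Map3k8[D270A] than in WT (SE 0.35, adjusted p = 0.00225). Among WT replicate 7, the one WT library at 2 h of the other set, and Map3k8[D270A] replicates 4 to 6, it was 1.01 lower (difference -1.01, SE 0.50, adjusted p = 0.194), with the spread of the lone library taken from the other groups. These sets were recognised from the values, those of *Nos2* among them, and not from the labels. The p-values within a set do not allow for that choice. The second difference, and the gap of 2.34 between both, rest on that single WT library. At 1 h, with 3 WT libraries in each set, the order was the other way, with a difference of -0.09 in the first set (adjusted p = 0.913) and 1.70 in the second (adjusted p = 0.00094), which holds replicate 5 at 7.25, and the gap of -1.79 did not pass (adjusted p = 0.0932).

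**Figure D2:**
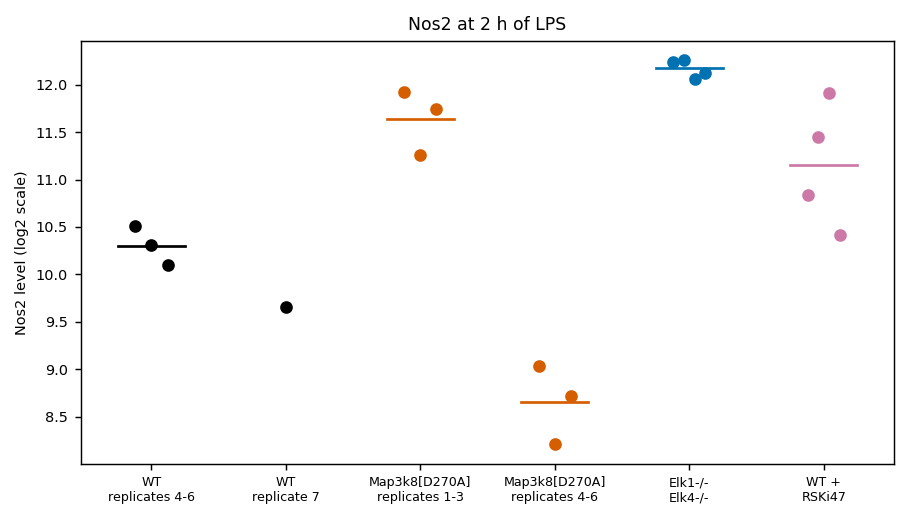
*Nos2* at 2 h of LPS (y axis, log2 normalised value) by arm (x axis), with 1 point per library and a line at the mean of 3 or 4 points; replicates of WT and Map3k8[D270A] are separated by replicate set. Map3k8[D270A] replicates 1 to 3 lie at 11.26 to 11.92 and replicates 4 to 6 at 8.21 to 9.03, on either side of the WT libraries at 9.66 to 10.51.

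At 1 h *Nos2* was below its 2 h levels in every arm sampled at both times. Map3k8[D270A] libraries were at 7.25 in replicate 5 and between 3.61 and 5.0 in the other 5. The rise of 0.99 in this arm (adjusted p = 0.0432) rested on that library, being 0.47 (adjusted p = 0.317) without it, and was also lost without any of replicates 1, 2, 3 and 6 at 0 h or replicate 4 at 1 h. PD0325901 libraries with 1 h of LPS were at 4.95, 4.49, 4.76, 5.04, 4.42 and 4.71, above every WT library at 1 h. That difference of 0.89 (SE 0.33, adjusted p = 0.029) was lost when the 6 libraries were averaged in pairs (adjusted p = 0.117) or when WT replicate 8 or 9 or PD0325901 replicate 1 or 4 was left out (adjusted p 0.0511 to 0.0592). Replicates 1 and 4, 2 and 5, and 3 and 6 of these libraries had close values, and whether they were separate cultures was not tested. Before LPS, DMSO-treated cells, at 3.79 to 4.11, already lay above every WT library at 0 h, by 0.49 (adjusted p = 0.412 as fitted, 0.0215 with the spread of those 2 groups), and the response to 1 h of LPS with PD0325901 differed from that of WT by 0.34 (SE 0.53, adjusted p = 0.878). The libraries with PD0325901 alone for 70 min, at 3.98 to 4.15, did not overlap those with 1 h of LPS, and that rise of 0.69 did not pass as fitted (adjusted p = 0.177) but did with the spread of those 2 groups alone (adjusted p = 0.00125). Elk1-/-Elk4-/- libraries at 1 h, at 4.44 to 4.83, were likewise above all of their own 0 h libraries and all WT libraries at 1 h. The rise of 0.73 and the difference from WT of 0.80 had adjusted p of 0.286 and 0.131 as fitted, and 0.00284 and 0.00106 with the spread of the groups compared. With RSKi47 the rise at 1 h was 0.39 without overlap (adjusted p = 0.563, or 0.00134 with its own spread). The call in Map3k8[D270A] went the other way, to 0.133. *Nos2* in Nfkb1[SS/AA] cells at 1 h was at 4.34, 4.20, 3.85, 5.32, 4.25 and 4.71, and the difference from WT of 0.61 did not pass (adjusted p = 0.135, interval of 2 SE -0.06 to 1.28). Before LPS the difference was already 0.71, without overlap (SE 0.33, adjusted p = 0.0953). The response to 1 h of LPS in these cells differed from that of WT by -0.10 (SE 0.47, adjusted p = 0.953).

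*Ass1*, the citrulline-recycling enzyme, did not rise or fall with LPS in WT beyond the spread of its libraries. WT means were 7.39 at 0 h (SD 0.60, n = 6) and 7.83 at 2 h (SD 0.63, n = 4), a difference of 0.44 (SE 0.32, limma adjusted p = 0.221). With *Gm5424* added the difference was 0.43 and passed (adjusted p = 0.0275). *Gm5424* itself was listed at 7.84 to 10.21 over all libraries (median 9.02). In 6 libraries *Ass1* dropped to between 5.35 and 5.49, namely Elk1-/-Elk4-/- replicate 2 at 0 h and replicate 1 at 1 h and Nfkb1[SS/AA] replicate 1 at 0 h, replicate 2 at 0.5 h and replicates 1 and 5 at 1 h. No other library was below 6.35. The share of *Ass1* values that depends on reads assigned to one or the other copy was not tested.

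RSKi47 libraries, with the raised fibroblast markers given above, had the highest *Ass1*. They were at 8.91, 8.63, 9.08 and 9.0 at 0 h, above every WT library, and at 8.54, 9.30, 9.17 and 9.11 at 2 h. The difference from WT was 1.52 at 0 h, 0.78 at 0.5 h, 1.34 at 1 h and 1.2 at 2 h, with adjusted p of 0.000101, 0.0737, 0.000572 and 0.00471. Without RSKi47 replicate 1 at 0.5 h the value there was 1.04 (adjusted p = 0.0444). The sum of *Ass1* and *Gm5424* was also higher, by 0.78, 0.72, 0.82 and 0.74 at the 4 times, with adjusted p of 0.000171, 0.00164, 8.72e-05 and 0.00105. Without replicate 4 at any time the *Ass1* differences were 1.48, 0.78, 1.33 and 1.17. *Gm5424* was at 9.22 to 10.21 in these 15 libraries and at 8.39 to 9.62 in WT.

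Nfkb1[SS/AA] cells had less *Ass1* than WT at 0.5 h (difference -1.01, SE 0.30, adjusted p = 0.00667, groups not overlapping) and at 1 h (-0.77, SE 0.30, adjusted p = 0.033). Before LPS, at 0 h, the difference was -0.61 (SE 0.30, adjusted p = 0.115). It passed without WT replicate 7 (-0.79, adjusted p = 0.0469) or Nfkb1[SS/AA] replicate 4 (-0.83, adjusted p = 0.0348) at 0 h. The call at 1 h was lost without any of WT replicates 4 and 5 or Nfkb1[SS/AA] replicates 1 and 5 (-0.70 to -0.54, adjusted p 0.0697 to 0.16). For the summed copies the differences were -0.43, -0.59 and -0.50 at 0, 0.5 and 1 h, and all 3 passed (adjusted p = 0.0337, 0.00281 and 0.00863). In Elk1-/-Elk4-/- cells *Ass1* was 0.82 below WT at 1 h (difference -0.82, SE 0.32, adjusted p = 0.0294), which was -0.44 (adjusted p = 0.274) without their replicate 1, was also lost without WT replicate 4 or 5, and was -0.32 (adjusted p = 0.127) for the summed copies. The rise of 1.05 at 2 h in the same cells (adjusted p = 0.00811) became 0.54 (adjusted p = 0.162) without their replicate 2 at 0 h and 0.69 (adjusted p = 0.00143) for the summed copies.

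**Figure D3:**
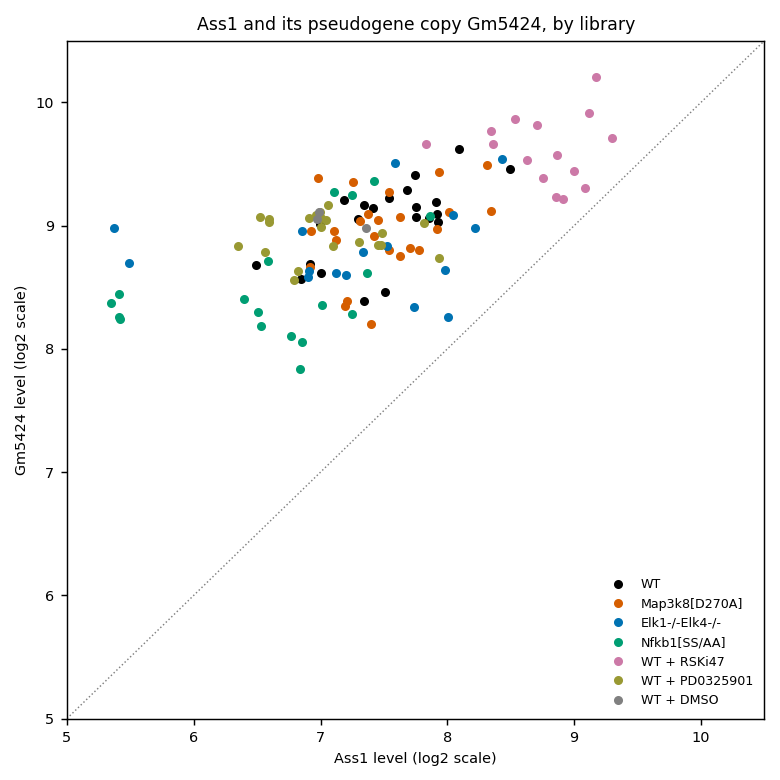
*Gm5424* against *Ass1* (log2 normalised values, not divided by transcript length), with 1 point per library coloured by arm and a dotted line of equal values. RSKi47 libraries reach highest on both axes, with *Gm5424* at 9.22 to 10.21, and 6 libraries stand apart on the left with *Ass1* at 5.35 to 5.49.

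*Odc1*, the entry enzyme of polyamine synthesis, was the first of the genes to rise. WT libraries were at 11.24, 11.33, 11.42, 11.61, 11.66 and 11.66 at 0 h. At 1 h they were at 12.19, 12.27, 12.34, 12.47, 12.50 and 12.51, and at 2 h at 12.52, 12.61, 12.84 and 12.72, with no overlap with 0 h. The increases were 0.89 (SE 0.09, adjusted p = 9.49e-13) and 1.19 (SE 0.10, adjusted p = 8.44e-16). At 0.5 h the libraries, at 11.53, 11.54, 11.61, 11.95, 12.04 and 11.93, overlapped those at 0 h as groups, yet in each of the 6 same-numbered pairs the later one was higher, by 0.19 to 0.38. With the pairs as a block the adjusted p was 5.45e-07. Without the block the increase of 0.28 (SE 0.09, adjusted p = 0.0279) was lost without any of WT replicates 4, 5 and 6 at 0 h or 7, 8 and 9 at 0.5 h (adjusted p 0.0621 to 0.116), and in the fit over all libraries (adjusted p = 0.062).

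The *Odc1* response was smaller in Map3k8[D270A] cells. Their libraries were at 11.88, 12.02, 11.91, 12.17, 12.07 and 12.10 at 1 h and at 11.76, 11.87, 11.89, 12.29, 12.24 and 12.25 at 2 h. Every one was below every WT library of the same time. The difference from WT was -0.35 at 1 h (SE 0.09, adjusted p = 0.00496) and -0.62 at 2 h (SE 0.10, adjusted p = 1.74e-06), while at 0 h it was 0.11 (adjusted p = 0.694). With the replicate number as a block the difference at 1 h was -0.10 (adjusted p = 0.181). That block sets WT replicates 4 to 6 beside Map3k8[D270A] replicates 4 to 6, which lie in different replicate sets. Numbers did not pair libraries across arms, so this value cannot show that the difference is smaller. Within this arm *Odc1* rose by 0.43 at 1 h and 0.45 at 2 h, the latter falling to 0.14 (adjusted p = 0.173) after quantile normalization, under which the median change of all genes was -0.10 (-0.01 without it). The response was smaller by 0.74 at 2 h (SE 0.13, adjusted p = 4.4e-05) and by 0.47 at 1 h (SE 0.13, adjusted p = 0.0313), the latter losing its call after quantile normalization (-0.42, adjusted p = 0.0936), in the fit over all libraries (adjusted p = 0.0741) and without any of 11 of the 24 libraries (adjusted p 0.0505 to 0.0835). Those 11 were WT replicates 4, 5 and 6 at 0 h and 7, 8 and 9 at 1 h and Map3k8[D270A] replicates 4, 5 and 6 at 0 h and 1 and 3 at 1 h. Within the set of WT replicates 4 to 6 and Map3k8[D270A] replicates 1 to 3, the difference at 2 h was -0.82 (adjusted p = 9.26e-15), and against WT replicate 7, the only WT library of the other set, it was -0.46, a value with no spread of its own in WT. The gap between both, -0.36, rests on that library. At 1 h, with 3 WT libraries in each set, the differences were -0.33 and -0.38 (adjusted p = 0.000146 and 1.87e-05). With PD0325901, which blocks the next kinases of the same cascade, *Odc1* at 1 h was at 12.10 to 12.21. Its difference from WT was -0.21 (SE 0.10, adjusted p = 0.10), and it was called (adjusted p = 0.0109) with the spread estimated from those 2 groups. Over 70 min of inhibitor alone *Odc1* rose by 0.66 (SE 0.13, adjusted p = 6.37e-06). That response differed from the WT one by -0.23 (SE 0.16, adjusted p = 0.6). DMSO-treated cells differed from WT at 0 h by -0.12 (adjusted p = 0.519).

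RSKi47 libraries had the lowest *Odc1* of all arms before LPS, at 10.77, 10.78, 10.73 and 10.78. The difference from WT was -0.72 at 0 h, -0.94 at 0.5 h, -0.81 at 1 h and -1.28 at 2 h (SE 0.13 at 2 h), with adjusted p of 1.24e-07, 1.34e-09, 5.44e-09 and 4.72e-15, and it was -0.73, -0.94, -0.64 and -1.21 without replicate 4, the one with the most fibroblast marker RNA. At 2 h, with libraries at 11.54, 11.45, 11.39 and 11.19, none reached the lowest WT library, and the response was smaller than in WT by 0.56 (SE 0.17, adjusted p = 0.0114, or 0.40 with an adjusted p of 0.0918 after quantile normalization). At 1 h replicate 1 stood at 12.65 and the other 3 at 11.32, 11.26 and 11.05, so the groups overlapped through that library. The response difference at 1 h was -0.09 with it and -0.45 (adjusted p = 0.0139) without it. The difference between this library and the mean of the other 3 was 1.45 for *Odc1*, the 10th largest among all genes, and among the genes above it were *Il10*, *Areg* and *Nr4a1*, named after their values were seen. The 1 deposited value treated as missing, that of *Fosb*, is in this library and outside this ranking.

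In Nfkb1[SS/AA] cells *Odc1* was lower than WT by about the same amount at each time. Libraries lay at 10.87 to 11.01 at 0 h, 11.12 to 11.40 at 0.5 h and 11.72 to 12.09 at 1 h, none reaching the WT libraries of that time. The difference was -0.52, -0.50 and -0.48 (adjusted p = 3.62e-05, 5.82e-05 and 8.52e-05), and the response at 1 h differed from that of WT by 0.04 (SE 0.15, adjusted p = 0.934). The rise of 0.30 at 0.5 h in these cells (adjusted p = 0.0395) was lost without any of 8 of the 12 libraries (adjusted p 0.0517 to 0.0921), replicates 1, 3, 4, 5 and 6 at 0 h and 1, 2 and 3 at 0.5 h. Elk1-/-Elk4-/- cells had *Odc1* at 12.22, 12.17, 12.01 and 12.25 at 0.5 h, above WT by 0.39 (SE 0.10, adjusted p = 0.00112) though the lowest of them overlapped with WT, and at 2 h the difference was 0.05 (adjusted p = 0.734).

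The promoter of *Odc1* (the 300 bases around its start in RefSeq, GRCm38.p6, chr12:17544623-17544922, plus strand) is shown because ELK1 and ELK4 are ETS factors, with the ETS motif CCGGAA in capitals:
Odc1: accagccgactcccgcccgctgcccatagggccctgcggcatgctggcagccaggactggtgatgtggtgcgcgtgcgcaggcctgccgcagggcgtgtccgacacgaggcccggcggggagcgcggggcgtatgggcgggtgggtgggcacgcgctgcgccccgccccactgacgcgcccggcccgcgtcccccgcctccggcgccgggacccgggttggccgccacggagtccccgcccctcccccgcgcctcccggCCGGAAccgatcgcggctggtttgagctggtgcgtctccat
It held 1 match to this motif on either strand, which 15.2% of 27025 promoters of this length also hold. It held no match to CACGTG (7.2% of promoters), TGANTCA (7.9%), TGACGT (7.6%) or a kappaB motif (4.3%). Among the 4 genes, *Ass1* also had a promoter in the table used, with 1 match to CACGTG and none to the other 4 motifs, and the promoters of *Nos2* and *Slc7a2* were not matched. These matches describe letters in the window and say nothing of binding. *Odc1* was not lower in Elk1-/-Elk4-/- cells than in WT (differences 0.12, 0.39, 0.16 and 0.05 at 0, 0.5, 1 and 2 h). A link of the match to its level was not tested.

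**Figure D4:**
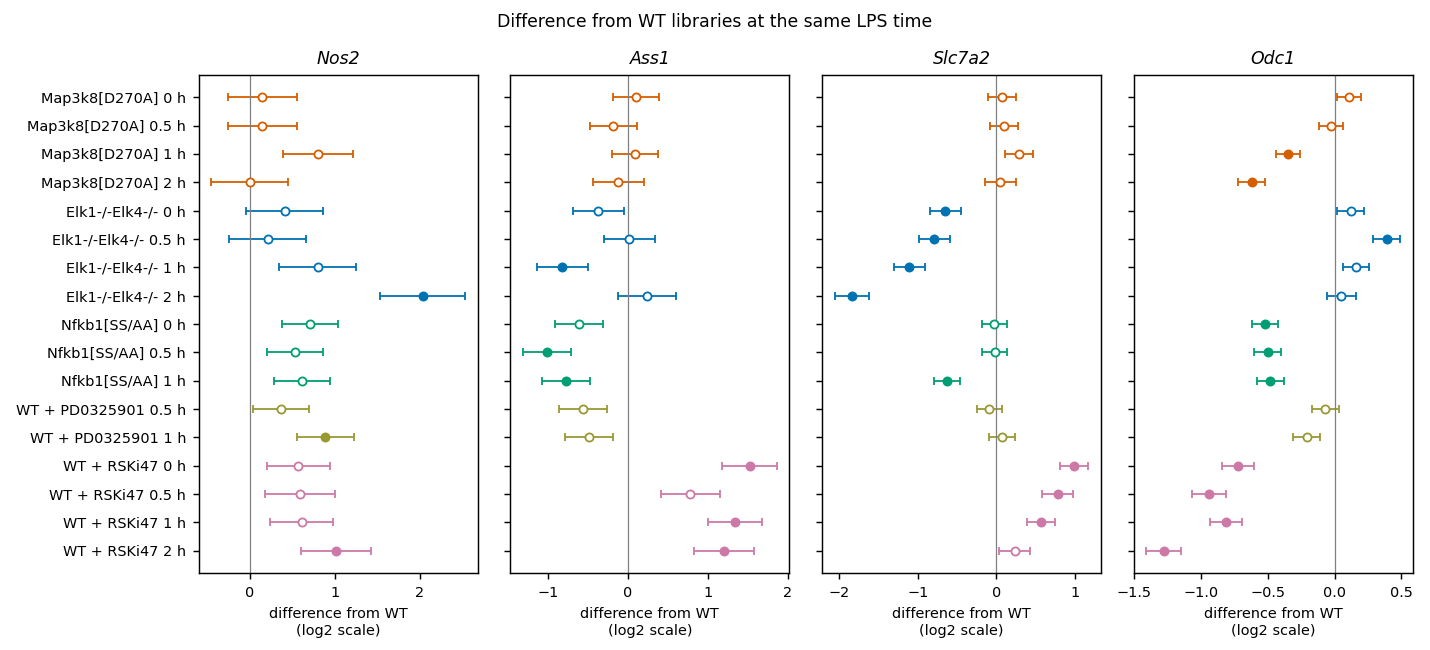
Difference from WT at the same time of LPS (x axis, log2 scale, bars of 1 SE from limma) for the 4 genes (panels) by arm and time (y axis), filled where the adjusted p is under 0.05. *Slc7a2* falls further below WT with time in Elk1-/-Elk4-/-, *Odc1* is below WT throughout in RSKi47 and Nfkb1[SS/AA] and at 1 and 2 h in Map3k8[D270A], and *Ass1* is above WT in RSKi47.

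Counted over the 4 genes, Map3k8[D270A] cells differed from WT in 0, 0, 1 and 1 of them at 0, 0.5, 1 and 2 h, *Odc1* lower each time, where 1.44%, 1.37%, 9.79% and 27.7% of all genes were called. In Elk1-/-Elk4-/- cells the counts were 1, 2, 2 and 2 (all genes 51.8%, 44.4%, 53.4% and 50.8%), and with RSKi47 they were 3, 2, 3 and 3 (53.0%, 48.2%, 52.8% and 52.1%). In Nfkb1[SS/AA] cells they were 1, 2 and 3 (32.0%, 32.3% and 42.5%) and with PD0325901 and LPS 0 and 1 at 0.5 and 1 h (29.4% and 35.7%). With about every other gene called in several of these arms, such counts are near the background and single out nothing about the 4 genes. For PD0325901 without LPS none of the 4 was called as fitted, neither at 10 min against DMSO (0.00% of all genes) nor at 40 or 70 min against 10 min (3.58% and 6.09%), and none was called between DMSO and WT at 0 h as fitted, where the 23.6% above were called.

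Differences of the LPS response from WT were rarer across the table. At 2 h, 1 of the 4 genes had a smaller response in Map3k8[D270A] (*Odc1*), 1 in Elk1-/-Elk4-/- (*Slc7a2*) and 2 with RSKi47 (*Slc7a2*, *Odc1*), where 15.5%, 16.9% and 21.0% of all genes were called. These comparisons share the WT libraries. At 1 h the counts were 1, 0, 0, 0 and 0 in Map3k8[D270A], Elk1-/-Elk4-/-, Nfkb1[SS/AA], PD0325901 and RSKi47 (all genes 2.02%, 1.35%, 6.07%, 3.58% and 5.55%), and at 0.5 h all were 0 (0.109%, 0.0589%, 0.309%, 1.49% and 0.0251%).

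Of 48 other genes of the same pathways, in 4 lists, 37 passed the filter. They covered arginine supply and the urea cycle (9 tested), nitric oxide synthesis and its cofactor (8), the routes from ornithine to proline and glutamate (4) and polyamines (16). In WT, none was called at 0.5 h, 13 at 1 h (8 higher, 5 lower) and 25 at 2 h (13 higher, 12 lower), or 67.6% at 2 h beside 71.5% of all genes, and the list median at 2 h was 0.01 against -0.02 for all genes. *Gch1*, whose product makes the tetrahydrobiopterin that nitric oxide synthases need, rose by 1.27 at 1 h (SE 0.07, adjusted p = 2.37e-22) and by 1.76 at 2 h (SE 0.08, adjusted p = 8.59e-27), and its rise at 1 h was 0.99 in Map3k8[D270A], 0.91 in Elk1-/-Elk4-/-, 1.08 in Nfkb1[SS/AA], 1.12 with PD0325901 and 1.12 with RSKi47.

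In the list of arginine supply and the urea cycle, 4 of 9 genes were called in WT at 2 h, 3 higher and 1 lower, or 44.4% beside 71.5% of all genes, with a list median of 0.09. The 3 that rose encode amino acid transporters or a subunit of one. *Slc7a7* rose by 1.56 (SE 0.14), *Slc7a1* by 1.08 (SE 0.09) and *Slc3a2*, which encodes the heavy chain that partners *Slc7a7*, by 0.58 (SE 0.06). The mitochondrial ornithine carrier *Slc25a15* fell by 0.27 (SE 0.05, adjusted p = 8.24e-07), and *Slc7a6* differed by 0.09 (adjusted p = 0.346). *Azin1*, the antizyme inhibitor that protects ornithine decarboxylase from degradation, rose by 0.54 (SE 0.05), and *Nosip* fell by 0.52 (SE 0.05). At 1 h *Azin2* rose by 0.51 (SE 0.07), and by 0.57 in Map3k8[D270A]. At 2 h in Map3k8[D270A], Elk1-/-Elk4-/- and RSKi47 cells *Gch1* rose by 1.53, 1.45 and 1.67, *Slc7a7* by 1.53, 1.06 and 0.79 and *Slc7a1* by 1.09, 0.80 and 0.82. *Paox*, the polyamine oxidase, fell by 0.51 in Map3k8[D270A] cells, and *Slc3a2* and *Sat1*, which acetylates spermidine and spermine, rose by 0.62 and 0.56 with RSKi47. The response of *Slc7a7* at 2 h was smaller by 0.78 with RSKi47 (SE 0.17, adjusted p = 0.000327).

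Against WT, 0, 0, 1 and 6 of the 37 pathway genes were called at the 4 times in Map3k8[D270A] cells. The 6 at 2 h, 3 higher and 3 lower, were 16.2% of the lists beside 27.7% of all genes. In Elk1-/-Elk4-/- cells 19, 19, 20 and 20 were called (51.4%, 51.4%, 54.1% and 54.1%, beside 51.8%, 44.4%, 53.4% and 50.8%), of which 14, 14, 15 and 13 were lower, where 45.5% to 49.5% of all called genes were lower. *Srm*, the spermidine synthase, was lower by 0.73, 0.62, 0.75 and 0.71 at 0, 0.5, 1 and 2 h there (differences -0.73, -0.62, -0.75 and -0.71), and *Eif5a*, whose product carries the spermidine-derived hypusine, by 0.53 at 0 h and 0.55 at 1 h (differences -0.53 and -0.55). *Smox*, the spermine oxidase, differed from WT by -0.51 at 2 h in these cells and *Slc7a7* by -0.53, and *Slc7a6*, another amino acid transporter, by -0.51 at 1 h. With RSKi47 24, 20, 22 and 19 were called (64.9%, 54.1%, 59.5% and 51.4%, beside 53.0%, 48.2%, 52.8% and 52.1%), of which 16, 14, 17 and 13 were lower, where at most 50.9% of all called genes were. There *Slc7a1* was higher by 0.52 at 0 h, and at 2 h *Aldh18a1* differed by 0.65, *Srm* by -0.55 and *Slc7a7* by -0.51, and *Ddah2*, which degrades an inhibitor of nitric oxide synthases, differed by -0.74, -0.70, -0.74 and -0.65. *Ddah2* was also lower in DMSO-treated cells than in WT at 0 h (-0.52, SE 0.09, adjusted p = 2.09e-06). Of the 37, 14, 15 and 15 were called in Nfkb1[SS/AA] cells (37.8%, 40.5% and 40.5%, beside 32.0%, 32.3% and 42.5%), with *Slc7a1* higher by 0.51 at 0 h, *Aldh18a1*, which starts proline synthesis from glutamate, higher by 0.58, 0.53 and 0.56, *Slc3a2* higher by 0.74 at 1 h and *Smox* differing by -0.54 at 1 h. *Amd1* and *Amd2*, near-identical genes for S-adenosylmethionine decarboxylase, ranged over 6.45 to 10.42 and 5.42 to 9.97 while their sum stayed within 9.74 to 10.54, so calls of either one are uncertain.

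The genes whose group means over the 25 groups were most like those of each member were listed by Pearson's r, as a description over groups that share experiments and times. For *Nos2* they were *Cxcl9* (0.992), *Ppp2r5a* (0.99) and *Ppp2r1b* (0.989), and for *Slc7a2* they were *Pxn* (0.985), *Nrp2* (0.982) and *Hivep3* (0.979). The best values were lower for *Odc1* (*Rtn4* 0.912, *2610001J05Rik* 0.897, *Vma21* 0.894) and for *Ass1* (*Lsm12* 0.917, *Ssr1* 0.902, *Chchd10* 0.897).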

How the data were processed

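Messenger RNA of mouse BMDMs was sequenced single-end and strand-specific. Per the labels and the study's methods, the authors aligned reads to mm10 with STAR, estimated RefSeq gene expression with RSEM and normalized it with DESeq2, and the submitters' processing notes name STAR 2.5.1b, RSEM 1.2.29 and DESeq2 1.10.1. The study's methods name other versions of STAR and RSEM. The deposited table holds normalised values, not counts, taken as log2 because the study plots its normalized counts on that scale and the range fits it, though how low values were treated is not described there, so depth is unknown and count tests were not used. Of its values, 1 of 57.73 (above a limit of 25) was treated as missing.

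Groups follow the labels, which name biological replicates. Differences were tested with limma 3.58.1 (R 4.3.3) on the log2 values, without a trend, with Benjamini-Hochberg adjustment over all genes tested and a threshold of 0.05. WT, Map3k8[D270A] and Elk1-/-Elk4-/- libraries were fitted together (62 libraries, 11884 genes that reached 10 on the linear scale in 4 or more libraries), and the other arms in a fit of all libraries (11971 genes, reaching it in 3 or more). Where inhibitor-only times matched, PD0325901 with LPS was set against them. A difference of responses is an interaction term.

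Replicate numbers paired libraries across times within WT (mean correlation of deviations 0.47, lowest 0.16) and Nfkb1[SS/AA] (0.39, lowest 0.14), from the values, as the labels do not state what a number marks. Across arms they did not (mean of -0.28 for WT with Map3k8[D270A]). Alternatives were the normalization, the filter, limma with trend, the libraries fitted, a replicate block, each library left out, the replicate sets, and, chosen after seeing the data, the sum of *Ass1* and *Gm5424*, a difference of at least 0.693 (a doubling, were the values on a natural log scale), and RSKi47 without replicate 4.

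The genes and the gene lists were chosen with earlier results of these data known, and some results are not reported here. Pathway genes were named where they passed the test with a difference of at least 0.5, up to 6 in a comparison by size (8 passed in WT at 2 h and 7 in Map3k8[D270A] at 2 h), and the 3 genes with the highest correlation of group means are named for each member. Figures were drawn with matplotlib 3.10.9, after pandas 2.3.3 and numpy 2.4.6 in Python 3.11.15.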

Additional observations from a re-analysis of the deposited data

Results flagged for a closer look

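Libraries that stood apart from the rest of their group by Dixon's criterion were looked for in 80 combinations of gene and group of 4 to 10 libraries, of which 6 had one, and chance alone flags about 1 in 20. The largest gaps were *Odc1* in RSKi47 replicate 1 at 1 h, at 12.65 where the others were at 11.05 to 11.32, and *Ass1* in Elk1-/-Elk4-/- replicate 1 at 1 h, at 5.37 where the others were at 6.86 to 6.91. *Nos2* was lowest in Elk1-/-Elk4-/- replicate 4 at 0 h (3.48, others 4.03 to 4.08) and highest in replicate 3 of these cells at 0.5 h (3.80, others 3.58 to 3.60). *Slc7a2* was highest in Elk1-/-Elk4-/- replicate 1 at 0.5 h (5.85, others 5.59 to 5.63). *Odc1* was lowest in Nfkb1[SS/AA] replicate 4 at 0 h (10.87, others 10.97 to 11.01).

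The LPS response differed from that of WT, by an interaction term in limma, in 5 of the 52 tests of the 4 genes, where 0.0251% to 21.0% of all genes were called. In Map3k8[D270A] cells these were *Odc1* at 1 h (-0.47) and 2 h (-0.74). In Elk1-/-Elk4-/- cells at 2 h it was *Slc7a2* (-1.19), and with RSKi47 at 2 h *Slc7a2* (-0.76) and *Odc1* (-0.56). Between the sets of replicates, first set minus second, the difference between Map3k8[D270A] and WT at 2 h changed by 2.34 for *Nos2* and by -0.36 for *Odc1*. The sets were recognised from the values, and at 2 h one of them holds a single WT library. Both values rest on that library and cannot show that the sets differ. At 1 h, with 3 WT libraries in each set, the *Nos2* gap was -1.79 and did not pass (limma adjusted p = 0.0932).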

How the results depend on the processing

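Of 200 tests of the 4 genes, 59 were called, in comparisons where 0.00% to 71.5% of all genes were called. Leaving out 1 library at a time ended a call in 12 of these and made one in 6 others, and no call changed direction. Counts of calls then ranged over 5 to 6 for LPS in WT, 20 to 22 for LPS in the other arms, 2 to 2 for Map3k8[D270A] against WT, 6 to 7 for Elk1-/-Elk4-/-, 5 to 7 for Nfkb1[SS/AA], 0 to 1 for PD0325901 with LPS, 0 for PD0325901 and DMSO without LPS, 10 to 12 for RSKi47 and 3 to 6 for the response differences. Requiring a difference of at least 1 left 3, 9, 0, 3, 1, 0 and 5 calls for LPS in WT, LPS in other arms, Map3k8[D270A], Elk1-/-Elk4-/-, Nfkb1[SS/AA], PD0325901 with LPS and RSKi47, and 1 response difference. At 0.693, 0 remained for Map3k8[D270A], 2 for Nfkb1[SS/AA] and 3 response differences. Quantile normalization also left 3 response differences. With the spread taken from the groups compared alone, PD0325901 with LPS had 4 calls and PD0325901 and DMSO without LPS 2. That spread made 19 calls over the 200 tests and ended 8. Calls ended were the rises of *Odc1* in WT at 0.5 h (adjusted p = 0.129), *Nos2* in Map3k8[D270A] at 1 h (0.133) and *Ass1* in Elk1-/-Elk4-/- at 2 h (0.0572). *Ass1* in Nfkb1[SS/AA] against WT at 1 h (0.144) was another. With RSKi47 they were the rises of *Slc7a2* (0.244) and *Odc1* (0.101) at 1 h, and *Slc7a2* against WT at 1 h (0.103) and in response at 2 h (0.0735). Averaging PD0325901 libraries in pairs left 0 with LPS. Within WT replicates 4 to 6 and Map3k8[D270A] replicates 1 to 3 there were 4 calls against WT, and the *Nos2* response difference at 2 h was 1.45 (adjusted p = 0.000243) in place of -0.15. These libraries were set apart from the values, a choice for which that p does not allow. The causes were not tested.

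With the replicate number as a block, PD0325901 with LPS had 2 calls against WT and Elk1-/-Elk4-/- cells 11. The 2 were *Ass1* at 0.5 h (-0.82, adjusted p = 0.0303, in place of -0.56) and 1 h (-0.76, adjusted p = 0.0442, in place of -0.49). The call of *Nos2* with PD0325901 at 1 h ended (0.80, adjusted p = 0.0736). *Odc1* in Map3k8[D270A] then differed from WT by 0.37 at 0 h (adjusted p = 3.17e-06), by 0.22 at 0.5 h (adjusted p = 0.00256) in place of -0.03, and by -0.10 at 1 h (adjusted p = 0.181) in place of -0.35. Within Map3k8[D270A] cells, where the lowest correlation of same-numbered libraries (0.07, mean 0.41) missed the 0.1 set for pairing, the block made a call of the *Odc1* rise of 0.14 at 0.5 h (adjusted p = 0.0201 in place of 0.651, higher in 6 of 6 same-numbered pairs) and ended that of *Nos2* at 1 h (0.99, adjusted p = 0.0601). Numbers did not pair libraries across arms by the correlation of their deviations. Within the paired arms the block changed no call other than that given for the rise of *Slc7a2* in Nfkb1[SS/AA]. Limma with trend and a filter over more libraries changed none of the 200. Without a filter on low values 3 calls ended. These were the rises of *Nos2* in Map3k8[D270A] at 1 h (adjusted p = 0.069), *Odc1* in Nfkb1[SS/AA] at 0.5 h (0.0607) and *Slc7a2* with RSKi47 at 1 h (0.0627). Median centring ended the last of these (0.0566). Depth is unknown, and the low values of unstimulated *Nos2* limit what could be seen.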
